A study of Mus musculus with 10 samples.

Results

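Expression of 5 genes that are known from astrocytes was followed with age in hypothalamus taken from C57BL/6J mice (males of an inbred strain), at 24 weeks (Young) and 138 weeks (Old). They are Kcnj10, Ntsr2, Slc1a2, Gja1 and Aldoc, 5 of the 19505 genes named on the array. They were taken by gene symbol, keeping for each gene the probe set with the highest mean over the arrays, and each had 1 probe set. They were picked with earlier results of this age comparison in view, so their differences between the ages are given as a description, with no test. Each age held 5 samples, numbered Young 1 to Young 5 and Old 1 to Old 5, and each was measured on its own Clariom S Mouse array, where 1 dye is read and a group of short probes, the probe set, reports on a transcript. The labels name no treatment or genetic change for either age, and the mice fed and drank freely. Whether the 5 samples of an age came from 5 animals is not stated in the labels, and p-values therefore describe the spread of these samples only, part of which may be technical.

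Astrocytes clear the potassium and glutamate that active neurons release. The channel Kir4.1, encoded by Kcnj10, takes up potassium and holds the membrane potential that drives glutamate uptake, the transporter GLT-1, encoded by Slc1a2, removes glutamate from the synaptic cleft, and gap junctions of connexin-43, encoded by Gja1, pass ions and small molecules from one astrocyte to the next. Ntsr2 encodes a neurotensin receptor and Aldoc the brain form of the glycolytic enzyme aldolase; both are used as astrocyte markers, and neither belongs to potassium handling, glutamate uptake or coupling. Kcnj10 is also expressed in oligodendrocytes.

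The deposited values are read as log2 signal. Of the 19505 genes, 19118 (98.0%) had a spread over the 10 arrays of 1e-05 log2, within 1%, and are called collapsed here: their deposited values give a level but no usable difference between ages. Another 276 genes, called varying, had a standard deviation (SD) over the arrays of 0.01 log2 or more, and the remaining 111 were intermediate. All 5 genes were varying. The median of each array was 6.78 log2 and 0 pairs of arrays were identical. Young 5 stood apart with a mean of 8.55 log2 over the 7 varying choroid plexus markers of 8 measured, against 6.56 to 6.76 in the other 9 arrays. Over the 4 varying striatal markers of 6 measured, Young 1, Young 2 and Old 3 had means of 8.19, 8.29 and 8.28 log2, and the other arrays 7.76 to 8.02. Of 7 hypothalamic peptide genes measured, Avp, Pmch and Hcrt had Young means of 9.06, 10.32 and 9.08 log2. Their Old means were 9.68, 10.39 and 8.99 log2. Every Old array lay above every Young array for Avp, as in 20.7% of varying genes. Oxt, Sst, Trh and Npy had Young means of 9.49, 10.64, 8.59 and 7.74 log2. Their Old means were 9.49, 10.48, 8.54 and 7.93 log2. These levels were not compared with another tissue. No detection call was used, so presence above background was not tested.

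The sequences just upstream of 3 of the genes are shown so that the genes with the clearest difference between the ages can be set beside one without it: in Kcnj10 and Ntsr2 the Young and Old values lie apart, and in Slc1a2 they overlap. Each is the 250 bases before the gene's start in RefSeq (build GRCm38.p6, plus strand, 5′ to 3′); all 5 genes matched by symbol. Capitals mark matches to the motifs searched.
Kcnj10, chr1:172340960-172341209: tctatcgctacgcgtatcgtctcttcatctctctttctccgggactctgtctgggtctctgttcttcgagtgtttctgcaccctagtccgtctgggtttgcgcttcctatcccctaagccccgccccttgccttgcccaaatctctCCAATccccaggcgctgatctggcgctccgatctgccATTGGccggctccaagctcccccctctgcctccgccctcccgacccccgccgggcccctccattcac
Ntsr2, chr12:16653220-16653469: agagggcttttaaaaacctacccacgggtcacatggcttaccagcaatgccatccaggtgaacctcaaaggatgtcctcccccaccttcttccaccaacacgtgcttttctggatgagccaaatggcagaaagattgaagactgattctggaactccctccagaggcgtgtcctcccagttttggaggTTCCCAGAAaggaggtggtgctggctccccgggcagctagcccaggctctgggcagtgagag
Slc1a2, chr2:102706188-102706437: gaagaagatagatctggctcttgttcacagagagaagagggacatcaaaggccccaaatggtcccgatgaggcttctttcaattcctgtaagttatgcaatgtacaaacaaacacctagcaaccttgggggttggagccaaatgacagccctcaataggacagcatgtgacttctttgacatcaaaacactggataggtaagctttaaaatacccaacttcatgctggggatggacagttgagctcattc

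The 3 windows differ in base composition. The Kcnj10 window had a GC content of 62.0% with 17 CpG dinucleotides, the Ntsr2 window 55.2% with 4, and the Slc1a2 window 44.8% with 1. Over the 32851 windows of this length in the RefSeq table the median GC content was 52.4%, with quartiles of 45.2% and 61.2%. Searches were made for 6 motifs on both strands, with no overlap between matches in these windows: TTGGCA (one arm of the NFI site), TTCNNNGAA (STAT factors), AACAAT (SOX factors), CAGCTG (an E-box), TATAAA and CCAAT. Kcnj10 held CCAAT at 2 places, 1 on each strand, and 33.8% of all windows hold it. Ntsr2 held TTCNNNGAA at 1 place, as do 7.02% of all windows, and Slc1a2 held 0 matches. The Gja1 window held 0, and of the windows at the 2 starts of Aldoc, 1 held TTGGCA (12.3% of all windows) and the other TTCNNNGAA at 2 places. A match is a description of the letters and not a sign of binding.

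Of the 5 genes, Kcnj10 had the lowest signal in Old relative to Young. In Young it read 9.94, 9.88, 9.88, 9.88 and 9.92 log2 in arrays 1 to 5, and in Old 9.19, 9.47, 9.49, 9.51 and 9.45. The Young arrays lay within 0.062 log2 of each other, the Old arrays were all lower and did not overlap with them, and Old 1 was the lowest array by a clear gap. The mean was 9.90 ± 0.027 log2 in Young (SD, n = 5) and 9.42 ± 0.13 in Old (SD, n = 5), a difference of -0.48, or a signal in Old at 71.9% of that in Young. The SD of the Old arrays was 4.80 times that of the Young arrays. Without Old 1 the difference was -0.42, and leaving out any single array gave -0.50 to -0.42.

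Ntsr2, the neurotensin receptor gene, was also lower in every Old array. It read 9.99, 9.85, 9.92, 9.92 and 9.89 log2 in Young 1 to 5, and 9.59, 9.65, 9.58, 9.65 and 9.59 in Old 1 to 5. Young 1 was the highest and the Old arrays were close together, with a gap of 0.19 log2 between the lowest Young and the highest Old array. The mean was 9.91 ± 0.053 log2 in Young (SD, n = 5) and 9.61 ± 0.036 in Old (SD, n = 5), a difference of -0.30, or 81.1% of the Young signal. Unlike Kcnj10, its Old arrays spread less than its Young arrays, with an SD ratio of 0.681, and its difference was -6.65 within-age SDs, against -5.05 for Kcnj10.

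**Figure D1:**
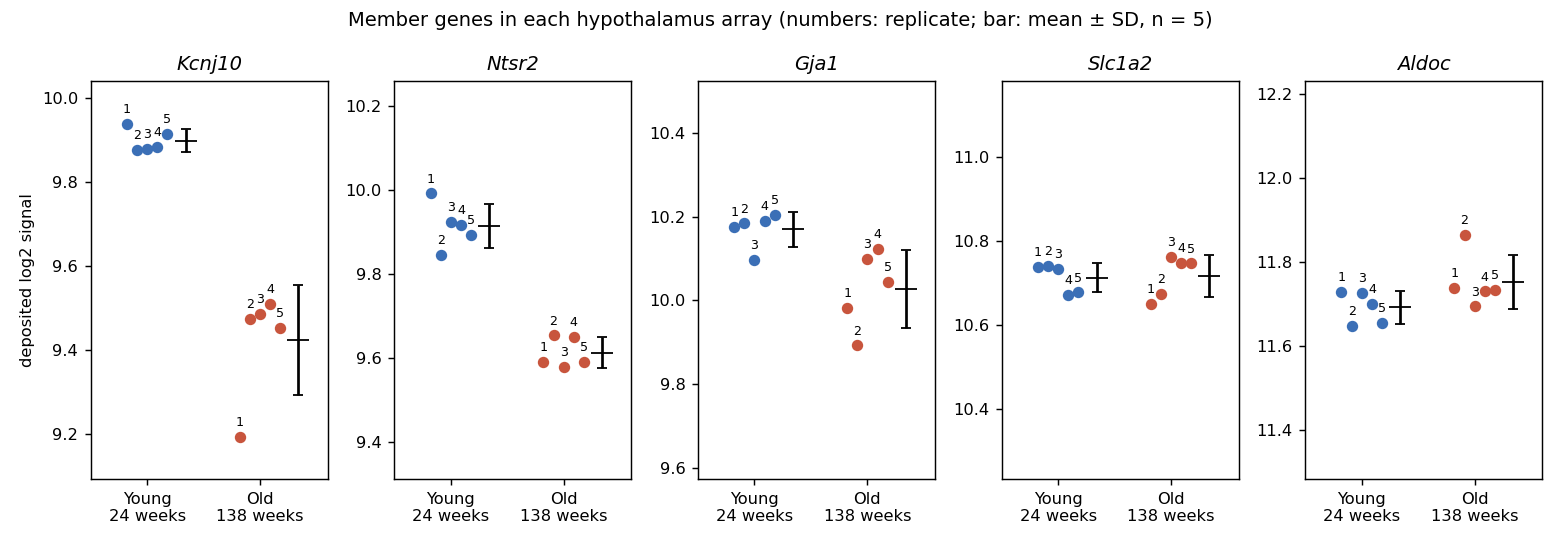
Deposited log2 signal (vertical axes, each spanning the same 0.95 log2) of Kcnj10, Ntsr2, Gja1, Slc1a2 and Aldoc in the 5 Young (blue) and 5 Old (red) arrays; numbers are replicates and bars the mean ± SD. Kcnj10 and Ntsr2 lie apart between the ages, Gja1 overlaps slightly, and Slc1a2 and Aldoc overlap.

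Gja1, the connexin-43 gene, had a lower mean in Old with a small overlap. It read 10.17, 10.18, 10.10, 10.19 and 10.20 log2 in Young 1 to 5, and 9.98, 9.89, 10.10, 10.12 and 10.04 in Old 1 to 5. Young 3 stood below the other Young arrays, and 3 of the 5 Old arrays lay below it. The mean was 10.17 ± 0.042 log2 in Young (SD, n = 5) and 10.03 ± 0.093 in Old (SD, n = 5), a difference of -0.14, or 90.6% of the Young signal. Without Old 2, the lowest array, the difference was -0.11.

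Slc1a2, the GLT-1 gene, had nearly the same mean at both ages. It read 10.74, 10.74, 10.73, 10.67 and 10.68 log2 in Young 1 to 5, and 10.65, 10.67, 10.76, 10.75 and 10.75 in Old 1 to 5. The ages overlapped widely, with Old 1 the lowest and Old 3 the highest of all 10 arrays. The mean was 10.71 ± 0.035 log2 in Young (SD, n = 5) and 10.72 ± 0.05 in Old (SD, n = 5), a difference of 0.0040, which is 0.092 of the within-age SD. Old 3, Young 2 and Young 1, which had the highest striatal marker means, were among the 6 arrays with an Slc1a2 signal of at least 10.73 log2. So were Young 3, Old 4 and Old 5, with striatal means of 7.87, 8.02 and 7.76 log2, that of Old 5 being the lowest of all arrays. The part of striatal tissue in this was not tested.

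Aldoc, the aldolase C gene, had a slightly higher mean in Old. It read 11.73, 11.65, 11.73, 11.70 and 11.65 log2 in Young 1 to 5, and 11.74, 11.86, 11.69, 11.73 and 11.73 in Old 1 to 5. Old 2 was the highest array and 4 of the 5 Old arrays lay above the highest Young array, most of them by less than 0.01 log2. The mean was 11.69 ± 0.039 log2 in Young (SD, n = 5) and 11.75 ± 0.065 in Old (SD, n = 5), a difference of 0.061, or 104% of the Young signal. Without Old 2 the difference was 0.032.

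The 5 genes therefore took different places among the 276 varying genes. Ordered from the lowest difference upward, Kcnj10 was number 2, Ntsr2 number 14, Gja1 number 42, Slc1a2 number 146 and Aldoc number 170. The median difference was -0.14 log2 over the 5 genes, 3 of which were lower and 2 higher in Old, and -0.019 log2 over the varying genes, of which 145 were lower and 131 higher. Groups that did not overlap, lower in Old, were found in 7.25% of varying genes and in 2 of the 5 genes; as the genes were picked on this contrast, nothing is read from that share. By their spread within an age, Kcnj10 was number 136 of 276 from the most variable, and Gja1, Aldoc, Ntsr2 and Slc1a2 were numbers 178, 214, 233 and 237. Their within-age SDs ran from 0.043 to 0.094 log2, against a median of 0.094 over the varying genes. Within an array, Kcnj10 minus Slc1a2 ran from -0.86 to -0.76 log2 in Young and from -1.46 to -1.20 in Old. The mean difference of this contrast, -0.480 log2, repeats that of Kcnj10 alone, -0.476. As Kcnj10 was picked on that difference, nothing further is read from the contrast.

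**Figure D2:**
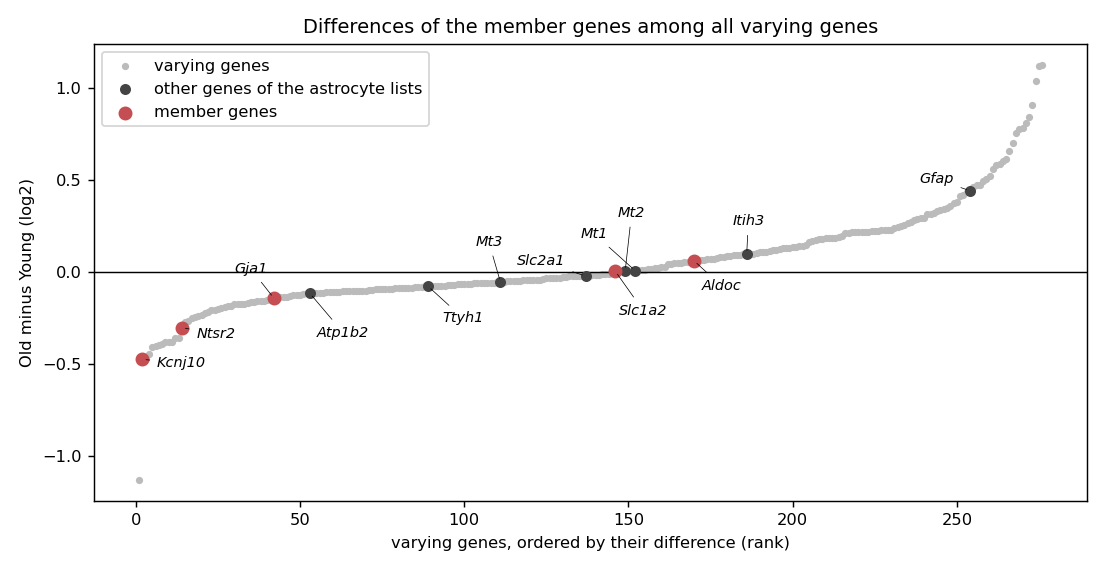
Difference Old minus Young in log2 (vertical axis) of the 276 varying genes, ordered by size (horizontal axis, rank); red points are the 5 genes and dark points the other varying genes of the astrocyte lists. Kcnj10 and Ntsr2 lie at the low end, Slc1a2 and Aldoc in the middle, and Gfap at the high end with 0.44.

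Other genes of the same functions were read from lists of potassium and water handling, glutamate and GABA handling, gap junctions, glycolysis and glycogen, neurotensin signalling, and general astrocyte markers. Besides the 5 genes, 84 of their genes were measured, of which 8 varied, 72 were collapsed and 4 were intermediate, so most of these functions cannot be compared between the ages. Old was compared with Young with limma's moderated test, calling genes at an adjusted p (Benjamini-Hochberg) under 0.05, once over all genes and once over the 276 varying genes alone. Among the varying genes 24.6% rose and 11.2% fell; of the 8 listed ones 1 rose (Gfap), 1 fell (Ttyh1) and 6 did not pass. The median difference of the 8 was -0.0083 log2. In the fit to all genes 0.190% rose and 0.0308% fell; of the 84 listed genes 1 rose (Gfap) and 1 fell (Slc7a10).

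Gfap, the intermediate filament that astrocytes raise when they become reactive, differed in the other direction from Kcnj10 and Ntsr2. It read 8.90, 8.83, 8.90, 8.88 and 9.13 log2 in Young 1 to 5, and 9.33, 9.34, 9.43, 9.52 and 9.25 in Old 1 to 5. Every Old array lay above every Young array, as in 20.7% of varying genes, and Young 5, the array with the choroid plexus signal, was the highest Young array. Gfap rose by 0.44 (SE 0.066, limma adjusted p = 0.00061 over the varying genes; 0.0396 over all genes). Over all genes that call was lost when 1 array was left out, unless that array was Young 5 or Old 5, with an adjusted p of up to 0.142 and a difference of 0.41 to 0.45 in those fits. Over the varying genes it held in every such fit, with an adjusted p of at most 0.00245.

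Ttyh1, which encodes a chloride channel-like membrane protein of astrocytes and neural stem cells, read 9.98, 9.96, 10.01, 9.99 and 9.93 log2 in Young 1 to 5 and 9.90, 9.93, 9.90, 9.89 and 9.87 in Old 1 to 5. The ages overlapped by 1 array on each side, Young 5 and Old 2. It fell by 0.078 (SE 0.024, limma adjusted p = 0.0301 over the varying genes; 0.191 over all genes), and the call was lost without Young 1, Young 3, Young 4, Old 4 or Old 5, with an adjusted p of 0.0589 to 0.0733. Slc7a10, a D-serine and glycine transporter of astrocytes, passed over all genes (limma adjusted p = 0.015), but the change in its deposited values was -0.00045 log2, so no size can be read from it. That call was lost without Young 3, Young 4, Young 5 or Old 4, with an adjusted p of up to 0.0639.

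**Figure D3:**
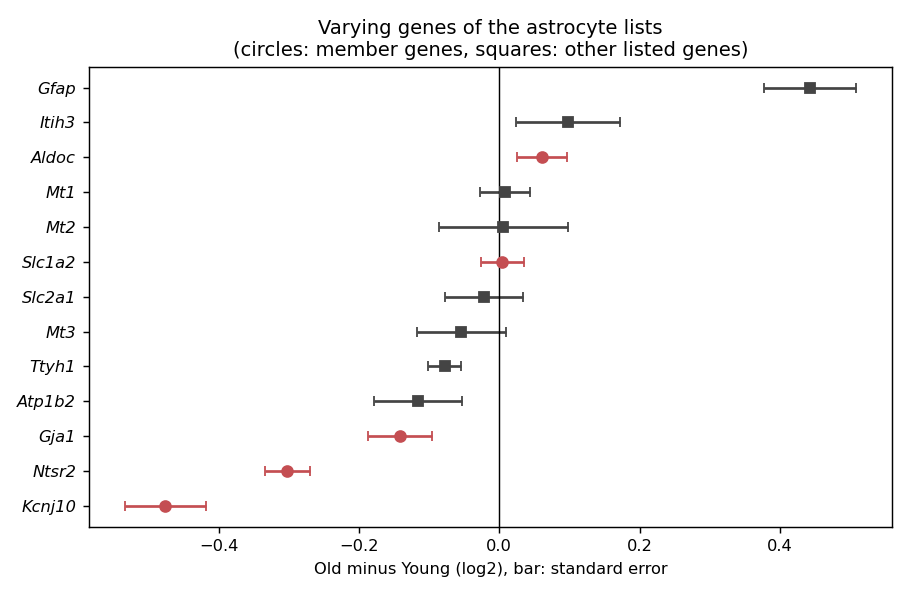
Difference Old minus Young in log2 (horizontal axis) of the 13 varying genes of the astrocyte lists, with limma's standard error from the fit to the varying genes; circles are the 5 genes and squares the other 8. Kcnj10 is lowest at -0.48 and Gfap highest at 0.44.

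In potassium and water handling, Atp1b2 was the only other varying gene of 14 measured. It encodes the beta subunit of the sodium-potassium pump of glia. It read 10.70, 10.63, 10.55, 10.61 and 10.49 log2 in Young 1 to 5 and 10.29, 10.55, 10.43, 10.60 and 10.54 in Old 1 to 5, with the ages overlapping. Its difference of -0.12 (SE 0.063) did not pass (limma adjusted p = 0.17 over the varying genes), and Old 1 was the lowest array here as it was for Kcnj10; without it the difference was -0.068. Kcnj16, which encodes the partner subunit of Kir4.1, was collapsed at 8.16 log2, and the water channel gene Aqp4 and the bicarbonate transporter gene Slc4a4 were collapsed at 9.01 and 9.65.

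In glutamate and GABA handling 0 of the 8 other measured genes varied. The second glutamate transporter of astrocytes, Slc1a3, was collapsed at 9.02 log2 and the GABA transporter Slc6a11 at 11.35. Glul was not analysed here. In gap junctions 0 of 8 varied: Gjb6, the other main connexin gene of astrocytes, was collapsed at 8.18 and Gjb2 at 7.04 log2. Of 4 other neurotensin genes 0 varied; the receptor gene Ntsr1 and the sorting receptor gene Sort1 were collapsed at 7.09 and 10.18 log2, and the peptide gene Nts, which was intermediate, differed by -1.3e-05 log2. The differences of Kcnj10, Ntsr2 and Gja1 could thus not be set against those of their partner genes.

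In glycolysis and glycogen, the glucose transporter gene Slc2a1 was the only other varying gene of 20 measured, at a difference of -0.022 (SE 0.056, limma adjusted p = 0.759 over the varying genes). It was highest in Old 2, at 10.44 log2, the array that was also highest for Aldoc. Aldoa, the other aldolase gene of brain, was collapsed at 11.23 log2. Of the 30 general astrocyte markers 6 varied. Besides Gfap and Ttyh1 these were the metallothionein genes Mt1, Mt2 and Mt3, at 0.0077, 0.0057 and -0.054 log2, and Itih3, at 0.098. Itih3 encodes a heavy chain of inter-alpha-trypsin inhibitor. For Mt1, Mt2, Mt3 and Itih3 the limma adjusted p over the varying genes ran from 0.325 to 0.955. Without Old 1 the differences of Mt3 and Itih3 were -0.090 and 0.158, and without Old 5 they were -0.020 and 0.063. Aldh1l1, S100b, Sox9 and Ndrg2, often used to count astrocytes, were collapsed at 7.84, 7.89, 8.30 and 11.61 log2. In these bulk samples fewer astrocytes and less RNA per astrocyte cannot be told apart.

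Markers of the other cells in the tissue were read beside these values. The mean of the 6 varying oligodendrocyte markers of 10 measured, a cell type that also expresses Kcnj10, ran from 9.86 to 10.06 log2 in Young and from 9.87 to 9.99 in Old. In the fit to the varying genes 1 of the 6 fell, the tight junction gene Cldn11, by 0.24 (SE 0.057, limma adjusted p = 0.00828), and 0 rose. Mbp, Mobp and Ermn had higher means in Old, by 0.085, 0.098 and 0.14 log2 (limma adjusted p = 0.0793, 0.0674 and 0.0674). Mal and Ugt8a had lower ones, at -0.045 and -0.10 log2 (limma adjusted p = 0.598 and 0.203). The list mean joins genes that differed in both directions. Gpr17, the varying precursor marker of 5 measured, fell by 0.20 (SE 0.041, limma adjusted p = 0.00353 over the varying genes). The mean of the 3 varying microglial markers of 8 measured was 7.94 to 8.04 log2 in Young and 8.37 to 8.58 log2 in Old. All 3 rose in the fit to the varying genes. Over all genes Ctss rose (limma adjusted p = 0.00017), and C1qa and C1qb did not pass (0.0719 each). Syn1, the varying neuronal marker of 10 measured, lay between 10.13 and 10.23 log2 in Young and between 9.94 and 10.06 in Old. It fell by 0.15 (SE 0.03, limma adjusted p = 0.0034 over the varying genes). Over all genes Cldn11, Gpr17 and Syn1 did not pass (limma adjusted p = 0.264, 0.126 and 0.0719). The part of these cell types in the differences of Kcnj10, Ntsr2 and Gja1 was not tested.

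The spread between arrays of one age was compared next. The genes were picked with the age comparison in view, but all were varying, and the SD behind that label includes the spread within an age. The tests were also chosen with earlier results of these data known. The choice of genes and tests can therefore not be taken as independent of this spread, and the p-values of the pairs are given as a description. Each value was set against the mean of its age, and the 10 pairs of genes were compared over the 10 arrays with an exact permutation test of the pairing within each age (14400 orders, 2-sided), with Benjamini-Hochberg adjustment over the 10 pairs. By Pearson's r, 2 pairs passed, in opposite directions, and by Spearman's rho 0 passed. The share of pairs of the other varying genes that would pass was not computed. The count of 2 is therefore not read as particular to these genes. With 10 arrays, a pair that did not pass is not shown to be unrelated.

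Ntsr2 and Aldoc deviated the same way in most arrays, but not in Old 4, at 0.038 and -0.023 log2. Pearson's r was 0.69 (exact p = 0.00187, adjusted p = 0.0187) and Spearman's rho 0.79 (exact p = 0.00681, adjusted p = 0.0681). Within Young alone r was 0.86 and within Old 0.68. Without Young 1 and Young 2, the arrays farthest from the median of Ntsr2, r was 0.71 (exact p = 0.0208, adjusted p = 0.208). Gja1 and Aldoc were opposed, with r of -0.81 (exact p = 0.00875, adjusted p = 0.0437) and rho of -0.73 (exact p = 0.0241, adjusted p = 0.12). Within Young r was -0.63 and within Old -0.87. Without Young 3 and Old 2, the arrays farthest from the median of Gja1, r fell in size to -0.36 (exact p = 0.231). This relation therefore rests on those arrays, more on Old 2 than on Young 3, without which alone r was -0.80. Leaving out any single array other than Old 4 left at most 1 pair past the threshold; the call of Gja1 with Aldoc was lost in each of these 9 fits and that of Ntsr2 with Aldoc in 8 of them, all but the one without Young 3, with r between 0.65 and 0.76 for Ntsr2 with Aldoc in those 8 fits. For Gja1 with Aldoc r was -0.53 without Old 2 and between -0.87 and -0.78 in the other 8 of its 9 fits.

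**Figure D4:**
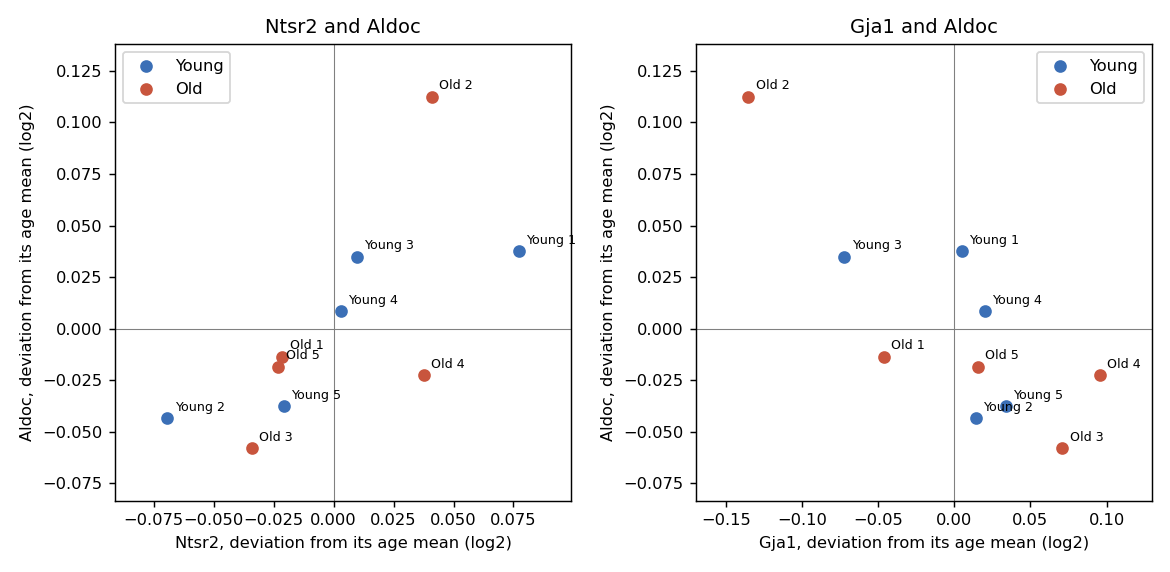
Deviation of Aldoc from its age mean (vertical axes, log2) against that of Ntsr2 (left) and Gja1 (right) in the 5 Young (blue) and 5 Old (red) arrays. Aldoc and Ntsr2 deviate the same way in most arrays (r = 0.69). Old 2 carries much of the opposed relation of Aldoc and Gja1 (r = -0.81, or -0.53 without Old 2 and -0.80 without Young 3).

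Of the other 8 pairs, Kcnj10 and Slc1a2 had the largest r, 0.60 (exact p = 0.0791, adjusted p = 0.264), with rho of 0.55 (exact p = 0.144), and without Old 1 and Old 4 r was 0.029. Both genes were lowest in Old 1. Slc1a2 and Gja1 had r of 0.50 (exact p = 0.229), and the remaining r values ran from -0.34 to 0.34. Kcnj10 and Ntsr2, the genes whose ages did not overlap, had r of 0.33 (exact p = 0.294, adjusted p = 0.589); among the Old arrays Kcnj10 was lowest in Old 1 and Ntsr2 in Old 3.

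Single arrays set apart different genes. Old 1 deviated by -0.23 log2 for Kcnj10 and by -0.066 for Slc1a2. Old 2 deviated by -0.14 for Gja1 and by 0.11 for Aldoc, and it also had the highest mean of the 2 varying endothelial markers of 6 measured, 8.28 log2 against 7.64 to 7.83 in the other arrays; the part of endothelial tissue in this was not tested. Young 5, which carried the choroid plexus signal, deviated by at most 0.037 log2 for any of the 5 genes. Without Young 3 and Young 5 the differences were -0.48 for Kcnj10, -0.31 for Ntsr2, -0.15 for Gja1, -0.00040 for Slc1a2 and 0.06 for Aldoc.

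**Figure D5:**
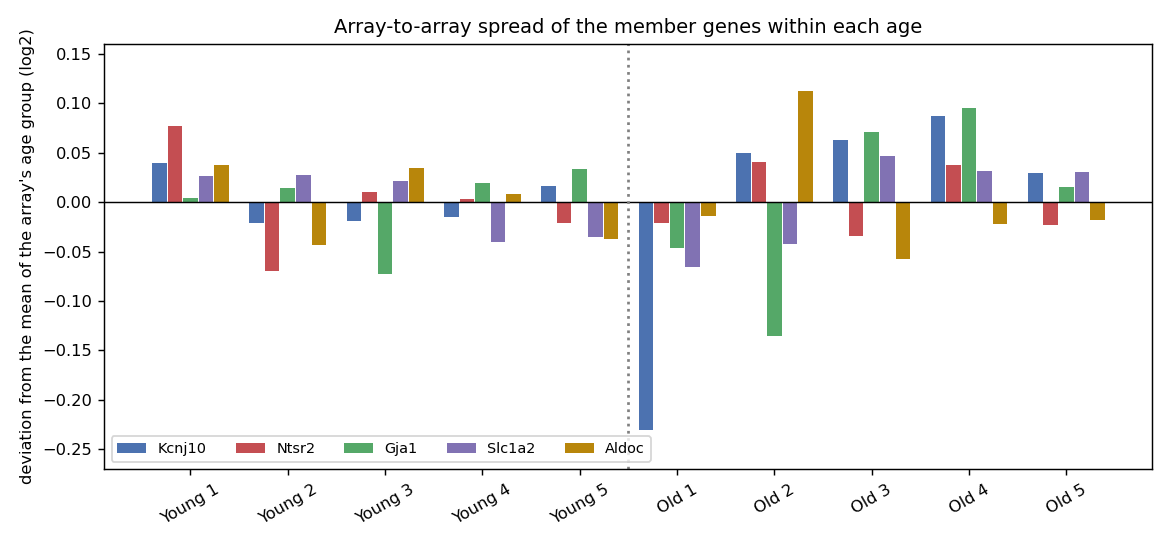
Deviation of each of the 5 genes from the mean of the array's age group (vertical axis, log2) in the 10 arrays (horizontal axis). Kcnj10 in Old 1 (-0.23), Gja1 in Old 2 (-0.14) and Aldoc in Old 2 (0.11) are the largest deviations.

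For each of the 5 genes, the most alike of the other 271 varying genes were found by Pearson's r of the same within-age deviations over the 10 arrays, given as a description. For Kcnj10 these were Lasp1, an actin-binding protein gene (r = 0.94), Scd1, a fatty acid desaturase gene (0.94), and Slc38a2, an amino acid transporter gene (0.93). Old 1 set much of these values: without it r was -0.0073 for Lasp1, 0.61 for Scd1 and 0.45 for Slc38a2. For Ntsr2 they were Prrt1, a synaptic AMPA receptor-associated gene (0.81), Nlgn3, a neuroligin (0.78), and Gnas, the stimulatory G protein subunit (0.78), and without Young 1 r was 0.66, 0.63 and 0.83.

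For Slc1a2 the most alike were Car2, a carbonic anhydrase (0.85), Dlg2, a postsynaptic scaffold (0.82), and Tlcd4 (0.82), and without Old 1 r was 0.78, 0.76 and 0.73. For Gja1 they were Cd9, a tetraspanin (0.90), the immediate early gene Nr4a1 (0.87) and Rsrp1 (0.87), and without Old 2 r was 0.89, 0.73 and 0.70. For Aldoc they were Psat1, an enzyme of serine synthesis (0.86), Mt1 (0.86) and Ly6c1, an endothelial surface gene (0.80), and without Old 2 r was 0.72, 0.64 and 0.45. These r values are the 3 highest of 271 for each gene. Which arrays were processed together is not known here, and the part of processing in these r values was not tested.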

How the data were processed

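Total RNA of the hypothalamus was labelled with biotin and measured on 10 arrays, per the labels' protocols. As deposited, the values are 1 log2 number per probe set and array (22206 probe sets); the authors' background correction, normalization and summarisation are not stated in the labels or the file, and the base of the log is read from the range of 5.00 to 12.97. How far that processing shrank differences is unknown, so differences describe the deposited values. The platform annotation named 19572 probe sets with 1 symbol, 0 with several, and left 2634 unnamed; the probe set with the highest mean was kept per gene.

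Old and Young were compared with limma 3.58.1 (lmFit, eBayes, 2-sided) in R 4.3.3, over all genes and over the varying genes, a split set after the spread of the values was known. The 5 genes, the lists and the tests were chosen with earlier results of these data known. Apart from the 5 genes, named genes are 20 fixed ones, up to 4 genes of each astrocyte list past the threshold among varying genes by smallest p, and the 3 genes most alike to each of the 5; marker genes, Slc7a10 and the other varying list genes are named besides, having been chosen after their values were seen. The procedure was run on simulated data. For the fits, noise was independent for each gene and array, so deviations shared by the genes of an array were not copied. Replicate numbers of the titles were not taken to pair the ages. The number of arrays limits the precision.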

Additional observations from a re-analysis of the deposited data

Results flagged for a closer look

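Of 26 groups of 5 arrays compared (the 5 genes and the 8 other varying genes of the astrocyte lists, at each age), 5 had an array far from the rest, where chance gives about 1 in 20 groups. Kcnj10 was lowest in Old 1, at 9.19 log2 against a nearest value of 9.45. Gja1 was lowest in Young 3, at 10.10 against 10.17. Aldoc was highest in Old 2, at 11.86 against 11.74. Slc2a1 was highest in the same array, at 10.44 against 10.27. Gfap was highest in Young 5, at 9.13 against 8.90.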

How the results depend on the processing

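The differences of the 5 genes stayed within 1 within-age SD of their values under every alternative run; over single arrays left out they ran from -0.50 to -0.42 (Kcnj10), -0.32 to -0.28 (Ntsr2), -0.17 to -0.11 (Gja1), -0.0076 to 0.020 (Slc1a2) and 0.032 to 0.075 (Aldoc). The fit to all genes called 37 genes higher and 6 lower. It called 546 and 7633 with quantile normalization and 92 and 19273 with median centring, of which 8025 and 19118 in all were collapsed genes, and 28 and 76 astrocyte list genes were then lower, against 1. Median centring moved the median difference over all genes from -8.7e-08 to -0.0025 log2, where collapsed genes as deposited have a spread of 1e-05 log2. Without Young 3 and Young 5 the fit to all genes called 22 and 2, with 0 list genes lower. A trended and robust prior gave 10 lower. The list gene that rose, Gfap, was called in 0 fits to all genes with that prior or with an unmoderated test.

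The varying genes gave 68 higher and 31 lower, and 17 lower without Young 3 and Young 5. The list gene that fell there, Ttyh1, did not pass without those arrays (0 list genes lower), and with an SD of at least 0.05 log2 it was not among the genes tested (0 lower). Of the gene pairs 2 passed, 1 with quantile normalization and 0 without Young 3 and Young 5 or without the 2 arrays farthest from the median, where r became -0.40 for Slc1a2 with Gja1 and 0.19 for Slc1a2 with Aldoc. Leaving out single arrays gave 20 to 37 varying genes lower, and 0 to 1 list genes lower and 1 higher among them. It gave 0 to 1 list genes higher and 0 to 1 lower in the fit to all genes, and 0 to 2 pairs. Differences near 0 changed sign: Mt1 was -0.019 with quantile normalization and -0.018 to 0.026 over single arrays left out, Slc2a1 was 0.031 without Young 3 and Young 5 and -0.064 to 0.0057, and Mt2 ran from -0.053 to 0.063. Mt3 ran from -0.090 to -0.020, Itih3 from 0.063 to 0.158 and Atp1b2 from -0.15 to -0.068, with no change of sign. The r of Kcnj10 with Aldoc (-0.16 to 0.23), Ntsr2 with Slc1a2 (-0.27 to 0.15) and Ntsr2 with Gja1 (-0.48 to 0.074) also changed sign. The cause of these changes was not tested.

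With the replicate number as a block, the fit to all genes called 10 higher and 1 lower, with 0 astrocyte list genes higher, and 0 list genes fell among the varying genes. Gfap then had a limma adjusted p of 0.467 over all genes and 0.0115 over the varying genes, and Ttyh1 one of 0.0812 over the varying genes. Same-numbered Young and Old arrays had correlations of -0.22 to 0.28 over the varying genes, and 1 of 5 Young arrays correlated best with its own number, so the numbers were not taken to pair the samples. These correlations cannot exclude a pairing.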
